A study of Mus musculus with 8 samples.

Results

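Gcg, the glucagon gene, was followed through all of its m6A-eCLIP sites in αTC1-6 cells, an immortalized mouse pancreatic alpha cell line. Its members were the sites of the count table that lie inside the RefSeq span of Gcg, chromosome 2 from 62474530 to 62483653 of mm10, on the minus strand. There were 23 such sites among 33774 sites in all, each 1 base long, and 0 of them lay in the span of another gene. Control cells carried scramble siRNA (SCR) and knockdown cells siRNA to Mettl14 (M14KD). From each, Input RNA and RNA pulled down with an m6A antibody (IP) were sequenced, which made 4 groups of 2 libraries. Replicate numbers 1 and 2 were SCR and 3 and 4 were M14KD, with an IP and an Input library under each number. Only 1 cell line was used, and the labels do not say whether replicates were separate cultures. The p-values therefore reflect the spread among these libraries, which may be technical.

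Gcg encodes proglucagon, a precursor that alpha cells cut with the prohormone convertase Pcsk2 into glucagon, the hormone that raises blood glucose. The same precursor is cut into GLP-1 and GLP-2 by Pcsk1 in intestinal L cells. The m6A mark is a methyl group on adenosine that a complex with Mettl3 and Mettl14 at its core places on nuclear messenger RNA, most often in long internal exons and around the stop codon. Antibodies against m6A are also known to bind m6Am, a related mark that another enzyme writes on an adenosine directly next to the cap.

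Library totals over all sites ran from 3438530 to 3637740 counts in Input and from 10207383 to 10918559 in IP. Of 12 alpha cell markers 8 had sites, with summed levels of 62985 to 66396 CPM (counts scaled by the library's total over all sites, as a rate per fixed number of counts) in SCR Input and 73443 to 74069 in M14KD Input. Most of this was Gcg itself: without it the sums were 14621 to 14842 CPM in SCR Input and 16043 to 16088 CPM in M14KD Input. Of 9 beta cell markers 1 had a site, with at most 1.38 CPM in any Input library, 1 of 3 delta cell markers had sites (Rbp4, 245 to 271 CPM in Input), and the 1 pancreatic polypeptide cell marker and 10 markers of non-endocrine cells had none. Mettl14 itself, the siRNA target, had Input counts of 64 and 44 in SCR against 32 and 22 in M14KD, and IP counts of 78 and 81 against 42 and 25, lower in every M14KD library than in both SCR libraries of its kind. Its Input level was 14.9 ± 3.96 CPM in SCR against 7.63 ± 1.74 CPM in M14KD (SD, n = 2), and the edgeR log2 fold change of -0.96 (SE 0.27, adjusted p = 0.261) did not pass over all genes.

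The 23 sites fell into 4 groups along the gene, separated by gaps of 1755 to 3832 bases (groups were drawn at gaps over 1000 bases after the positions were seen), and are numbered here from 5′ to 3′. Position group 1 held sites 1 to 3, from 2 to 59 bases after the first transcribed base of RefSeq. Position group 2 held the 8 sites 4 to 11 from 62480484 to 62480553, position group 3 the 6 sites 12 to 17 from 62478574 to 62478729, and position group 4 the 6 sites 18 to 23 from 62474596 to 62474742, which lie 66 to 212 bases from the 3′ end of the span. Exon annotation was not used here, so the groups are not assigned to exons, introns or untranslated regions. Within groups, neighbouring sites were 2 to 79 bases apart with a median of 13, and 9 of 19 neighbouring pairs were within 10 bases. Such pairs may count the same reads: sites 9, 10 and 11 had 14477, 14676 and 14783 counts in Input replicate 1. Not all pairs were this close. In the pairs within 10 bases, a site had 0.92 to 6.01 times the count of the one before it in the same library. The 23 sites cannot be taken as independent measurements.

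Sites 1 and 2 are the sites for which a reference sequence is at hand, since they lie in the first 50 transcribed bases, and they are shown because position group 1 stood apart from the rest of the gene in the IP libraries. The windows below run 5′ to 3′ on the gene strand (RefSeq, GRCm38.p6, the assembly of mm10), and the capital marks the base at the site.
site 1, chr2:62483641-62483661: cctggtgcagAagggcagagc
site 2, chr2:62483604-62483622: caaagttcccAaggggact
Both sites fall on an adenosine, base 3 and base 42 of the transcript as RefSeq starts it. The first window begins upstream of the transcript. The motif GGACT, a common form of the sequence in which m6A is found, occurred once on the gene strand and not at all on the other strand in the 50 bases. It covers bases 46 to 50, the end of the second window, so that its central adenosine is base 48 and not the site itself. Of 32851 RefSeq starts, 5.76% have GGACT on the gene strand in their first 50 bases and 4.87% on the other strand. Site 3, at base 60, lies beyond this stretch.

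The Input libraries showed how much of the RNA signal Gcg carried. Summed over its 23 sites, Gcg had 51554 and 48363 CPM in the SCR Input libraries and 57981 and 57399 CPM in the M14KD Input libraries, so that 4.996% ± 0.23 of SCR Input counts and 5.77% ± 0.04 of M14KD Input counts were Gcg (SD, n = 2). Both M14KD libraries lay above both SCR libraries, as at 18.2% of single sites with a mean count of at least 20. The share of genes for which this held was not counted. By summed count Gcg had rank 4 of 6531 genes in both SCR Input libraries and rank 3 in both M14KD Input libraries, a rank that depends on how many sites a gene has and how they overlap, and not on RNA amount alone. Of the 100 sites with the most counts in each Input library, 18 were Gcg sites. In the bulk samples, more Gcg RNA per cell and more Gcg-expressing cells cannot be told apart.

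In the IP libraries Gcg had 13026 and 12078 CPM in SCR and 15245 and 15021 CPM in M14KD, 1.26% ± 0.07 and 1.51% ± 0.02 of counts (SD, n = 2). Again both M14KD libraries lay above both SCR libraries, as at 18.8% of single sites with a mean count of at least 20. The 4 values were all far below the Input values. The bar plot of the summed levels shows both differences side by side.

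**Figure D1:**
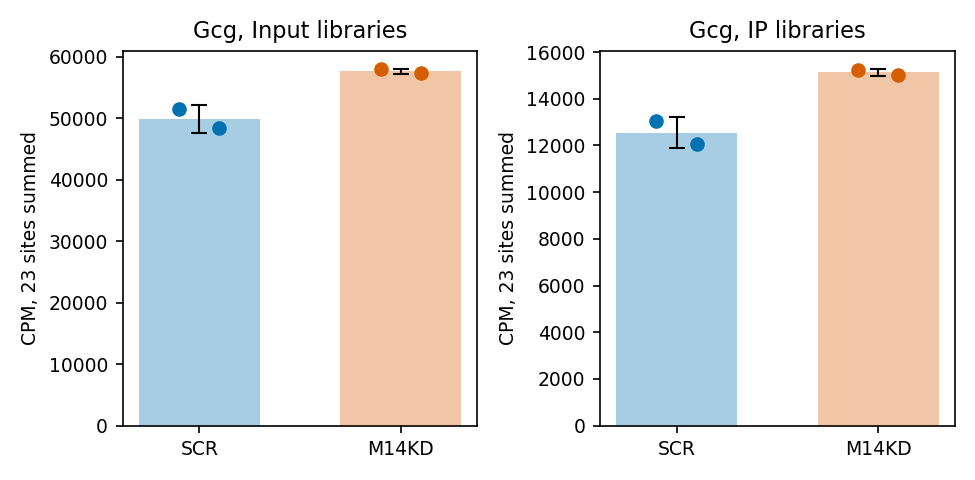
Gcg level summed over 23 sites in CPM (y axis, from 0) in the Input libraries (left) and the IP libraries (right). Points are single libraries, bars are means and error bars are SD (n = 2 per group); the SCR libraries reach 51554 in Input and 13026 in IP, below both M14KD libraries of the same kind.

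Single sites differed widely in level. Sites 11, 10 and 9 of position group 2, at 62480484, 62480487 and 62480489, had the highest SCR Input levels, at 3964 ± 174, 3926 ± 186 and 3880 ± 174 CPM (SD, n = 2). Site 11 had 4088 and 3841 CPM in SCR Input, 4419 and 4797 CPM in M14KD Input, 837 and 787 CPM in SCR IP and 1022 and 1027 CPM in M14KD IP. The lowest level was at site 12, at 62478729, with 76.6 ± 0.46 CPM in SCR Input. From site 12 to site 15, over 12 bases, the SCR Input level went from 76.6 through 364 and 618 to 746 CPM. Site 1, at transcribed base 3, was also low, with 132 ± 5.42 CPM. Levels at 23 sites, plotted for each library, keep this shape in both genotypes.

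**Figure D2:**
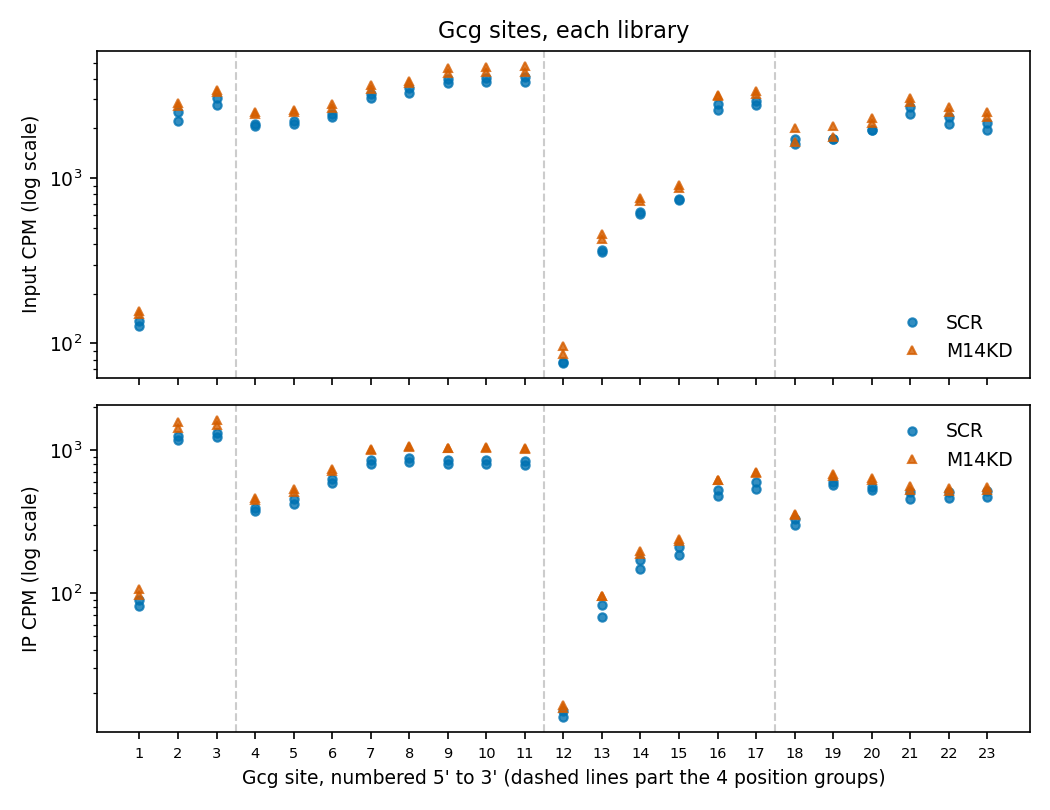
CPM (log scale) at each of the 23 Gcg sites, numbered 5′ to 3′ on the x axis, in the Input libraries (top) and the IP libraries (bottom); circles are SCR libraries, triangles M14KD libraries, and dashed lines part the 4 position groups. In Input the highest sites are 9 to 11 and in IP sites 2 and 3, while sites 1 and 12 are lowest within their groups in both.

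The antibody comparison asked how far Gcg reads were enriched or depleted by the m6A antibody. Gcg was among the most depleted genes. Its log2 ratio of IP over Input, with TMM scaling (factors that match the bulk of genes between libraries), was -2.69 (SE 0.06, edgeR quasi-likelihood test with Benjamini-Hochberg adjustment, adjusted p = 2.29e-14) in SCR and -2.62 (SE 0.06, adjusted p = 4.39e-14) in M14KD, or 15.6% and 16.3% of the Input level. Of 6379 genes tested, 44 had a lower value than Gcg in SCR and 46 in M14KD. Of all genes tested, 34.7% were called lower in SCR and 35.6% in M14KD, so that passing the test was common. From CPM alone, without TMM factors, the ratio was -1.98 in SCR replicate 1, -2.002 in replicate 2, -1.93 in M14KD replicate 3 and -1.93 in replicate 4, so that IP was 25.1% of Input in SCR and 26.2% in M14KD. With column totals the median of all genes moved from 0.04 to 0.75 in SCR, and Gcg relative to that median was -2.72 with either scaling. A negative ratio says that the share of Gcg was lower in IP than in Input relative to other genes, and not that the transcript lacks the mark.

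Genes with many Input reads were mostly depleted alongside Gcg. Among the 20 genes with the highest SCR Input counts, all 20 had an IP over Input log2 ratio below 0, with a median of -2.06 and a range of -2.82 to -0.40, and 3 of them were lower than Gcg. Among the 100 highest, 89 were below 0. Over 6379 genes, which share libraries and are not independent, Spearman's rho between the ratio and the log2 SCR Input CPM was -0.23, a weak relation in which Input enters both quantities. The part of Input level in the depletion of Gcg was not tested.

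All 23 Gcg sites were lower in IP than in Input in both genotypes, against 33.4% of sites called lower in SCR and 33.1% in M14KD. Of 127 genes with at least 20 tested sites, 5 had every site below 0 in SCR. The site values in SCR ran from -3.16 to -1.35 with a median of -2.92, and 0.55% of all sites lay below that median. The least depleted sites were site 1 (-1.35, SE 0.09, adjusted p = 3.42e-14 by edgeR) and site 2 (-1.68, SE 0.09), followed by site 3 (-1.90, SE 0.09), the 3 sites of position group 1. The most depleted were site 4 at 62480553 (-3.16, SE 0.09) and site 16 at 62478638 (-3.14, SE 0.10). Site 19 at 62474694, near the 3′ end, came next after position group 1 with -2.27 (SE 0.09).

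The values behind these ratios were far apart for the same RNA. Site 1 had 136 and 128 CPM in SCR Input and 89.0 and 80.7 CPM in SCR IP, and in M14KD 151 and 157 CPM in Input and 108 and 97.2 CPM in IP. Site 2 had 2520 and 2219 CPM in SCR Input and 1263 and 1170 CPM in SCR IP, and 2730 and 2850 against 1567 and 1424 CPM in M14KD. Site 4 had 2138 and 2059 CPM in SCR Input and 395 and 374 CPM in SCR IP, and 2502 and 2452 against 447 and 465 CPM in M14KD. Site 16 had 2798 and 2592 CPM in SCR Input, 527 and 476 CPM in SCR IP, 3133 and 3174 CPM in M14KD Input and 622 and 617 CPM in M14KD IP. Input and IP ranges did not overlap at any of these 4 sites in either genotype. The sites were picked by this ratio, however, and the share of all sites without overlap was not counted.

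**Figure D3:**
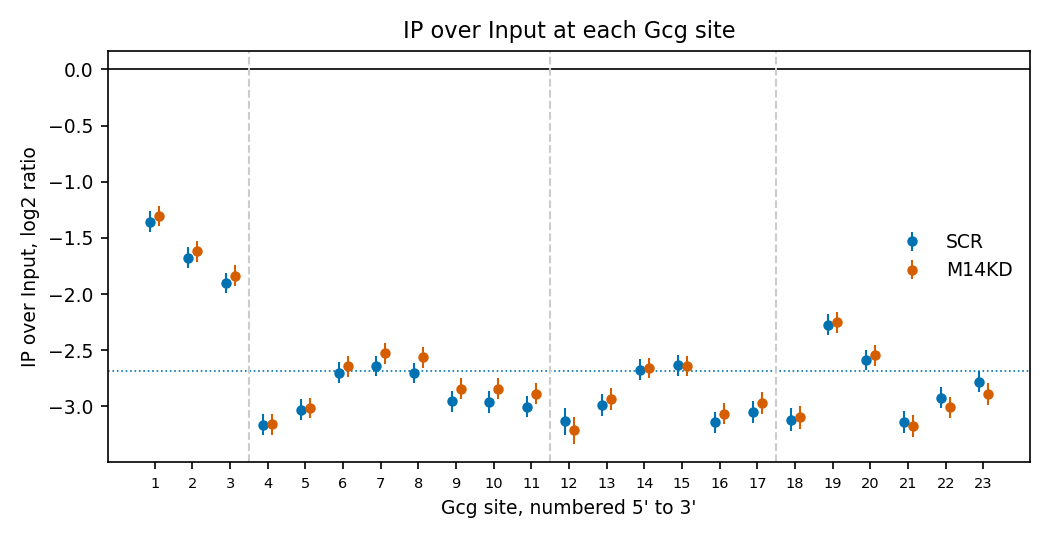
Log2 ratio of IP over Input (edgeR, TMM scaling; points are fitted values and bars SE, 2 libraries per group) at each Gcg site numbered 5′ to 3′, in SCR and M14KD, with dashed lines between position groups and a dotted line at the SCR value of the summed gene (-2.69). All points lie below 0, sites 1 to 3 are the highest and site 19 is the highest of position group 4.

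A test of each site against the other sites of its gene asked whether the depletion was even along Gcg. In this test, in which the scaling of libraries cancels, sites of position group 1 were less depleted than the rest of Gcg: site 1 by 1.35, site 2 by 1.03 and site 3 by 0.81 on the log2 scale in SCR (edgeR diffSpliceDGE, adjusted p = 1.6e-29, 5.1e-24 and 3.47e-17), and by 1.34, 1.03 and 0.81 in M14KD. Site 19 was also less depleted than the rest, by 0.43 (adjusted p = 9.43e-06) in SCR and 0.40 in M14KD. In SCR 12 sites were lower than the rest, 5 of position group 2, 4 of position group 3 and 3 of position group 4, and in M14KD 11. Differences of this kind were common, with 20% of 30058 sites called higher and 27.7% called lower than the rest of their gene in SCR, and 19.5% and 27.1% in M14KD. The test pools the spread over the sites of a gene, and neighbouring Gcg sites may count the same reads, so these p-values are too small. The number of lower sites in SCR was 8 without SCR replicate 1 and 7 without SCR replicate 2, with 4 higher sites each time. In M14KD it was 6 without M14KD replicate 3 and 7 without M14KD replicate 4, with 4 and 3 higher sites.

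Other sites near a start gave a background for sites 1 to 3. Of 593 tested sites within 100 bases after a RefSeq start, in 366 genes, 18.4% were called higher than the rest of their gene in SCR, against 20.1% of 29465 other sites. Their median IP over Input log2 ratio was -1.11, against 0.09 at the other sites. The value of site 2 against the rest of Gcg was above that of 575 of the 593. Whether Gcg differs from these genes was not tested.

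In shares of the Gcg counts, position group 1 held 10.8% ± 0.35 in SCR Input and 20.5% ± 0.08 in SCR IP, and 10.97% ± 0.35 and 20.9% ± 1.04 in M14KD (SD, n = 2). Every IP library lay above every Input library. Position group 2 went the other way, from 50.02% ± 0.17 in SCR Input to 44.4% ± 0.33 in SCR IP, as did position group 3, from 14.7% ± 0.19 to 12.05% ± 0.33. Position group 4 was at 24.5% ± 0.01 in SCR Input and 23.03% ± 0.07 in SCR IP. In M14KD its share was 21.5% ± 0.03 in IP and 24.2% ± 1.37 in Input. The difference between genotypes in this share was not tested and has no background from other genes. Tested singly against the rest of Gcg, 0 sites differed between genotypes in IP or in Input (edgeR diffSpliceDGE). Between genotypes the shares of single sites moved by at most 0.18 percentage points in Input (site 8) and 0.36 in IP (site 23, from 3.92% to 3.56%).

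**Figure D4:**
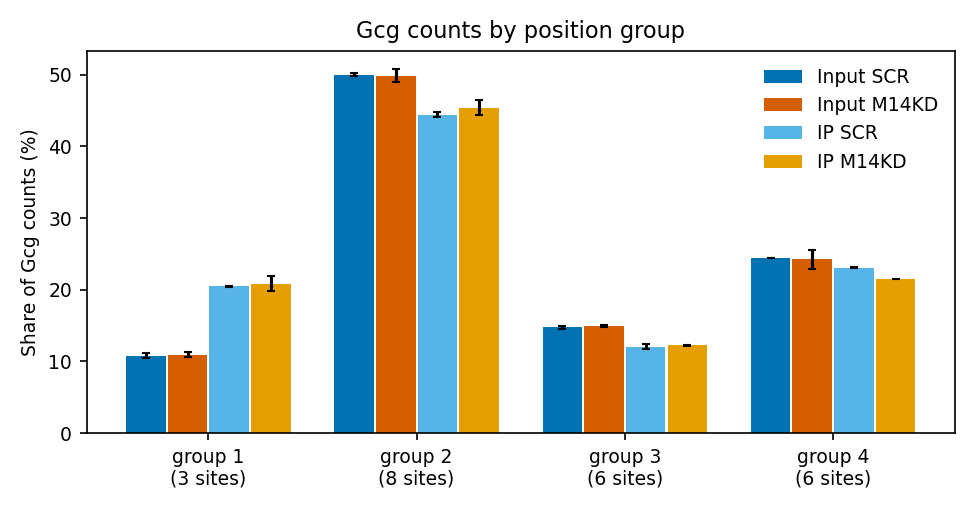
Share of all Gcg counts (%, y axis from 0) in each of the 4 position groups from 5′ to 3′, as means with SD (n = 2 libraries) for Input and IP in SCR and M14KD. Position group 1 is at 10.8% in SCR Input and 20.5% in SCR IP, and position group 4 is at 23.03% in SCR IP and 21.5% in M14KD IP.

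Mettl14 knockdown was compared with scramble in each kind of library. Gcg counts were higher in both M14KD Input libraries and both M14KD IP libraries, but the change did not pass the threshold. In Input the gene-level log2 fold change was 0.21 (SE 0.05, edgeR adjusted p = 0.22), a 1.15-fold difference, and in IP it was 0.29 (SE 0.06, adjusted p = 0.192), 1.22-fold. Gcg ranked 49th by p among 5826 genes in Input and 42nd among 6381 in IP. No gene was called at this level in either comparison, 0% of those tested, with 593 and 900 genes at an unadjusted p under 0.05. DESeq2 gave an adjusted p to 2793 genes in IP and 1082 in Input, and called 46 and 22 of them. For Gcg its log2 fold change was 0.29 in IP (DESeq2 adjusted p = 0.0389) and 0.21 in Input (adjusted p = 0.134). Leaving out each replicate in turn, the edgeR log2 fold change ran from 0.23 to 0.343 in IP and from 0.174 to 0.25 in Input. Whether Gcg passed depended on which replicate was left out, and how many other genes passed also changed with it. Each of these fits left a group with 1 library, whose spread is then taken from the other group. Their p-values are therefore not given for the summed gene.

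All 23 sites had a log2 fold change above 0 in both kinds of library. In IP they ran from 0.15 to 0.36 with a median of 0.29, and in Input from 0.17 to 0.30 with a median of 0.24, while 51.2% and 50.4% of all sites were above 0. Among 127 genes with at least 20 tested sites in IP, 8 had every site above 0. The CPM of both M14KD libraries lay above that of both SCR libraries at 23 sites in IP and 22 in Input, against 18.8% and 18.2% of sites with a mean count of at least 20. No Gcg site was called by edgeR in either comparison, where 0.63% of all sites were called in IP and 0.0929% in Input, although 20 Gcg sites in IP and 22 in Input had an unadjusted p under 0.05. DESeq2 called 9 Gcg sites higher in IP, where it called 120 of the 6840 sites to which it gave an adjusted p, and 0 in Input, where it called 35 of 2092. Without SCR replicate 1 edgeR called 18 Gcg sites higher in IP (1422 of 33429 sites in all), and without SCR replicate 2 it called 2 (203 of 33427). Without M14KD replicate 3 or M14KD replicate 4 it called 0 Gcg sites, and 0 and 80 sites in all.

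The site with the lowest p in IP was site 11 (0.36, SE 0.08, edgeR adjusted p = 0.0536), whose levels are given above. In Input it was site 13, at 62478725 in position group 3 (0.30, SE 0.09, edgeR adjusted p = 0.25). Site 13 had 359 and 369 CPM in SCR Input and 427 and 457 CPM in M14KD Input, and 82.2 and 68.7 against 95.4 and 94.8 CPM in IP. Its genotypes did not overlap in either kind, but it was picked for its low p. The same held at 22 of 23 Gcg sites in Input and 23 in IP. In IP the fold changes of position group 4 ran from 0.15 to 0.25, those of position groups 1 and 2 from 0.27 to 0.36 and those of position group 3 from 0.20 to 0.36, which overlap position group 4, as the plot of fold changes by site shows. Tested against the rest of Gcg, however, 0 sites differed in either comparison by edgeR, and the unadjusted p was under 0.05 at 0 sites (site 23 was furthest from the rest, at -0.14 in IP). In the whole table this test called 1 site in IP, 0.00333% of those tested, and none in Input, with 404 and 439 at an unadjusted p under 0.05.

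**Figure D5:**
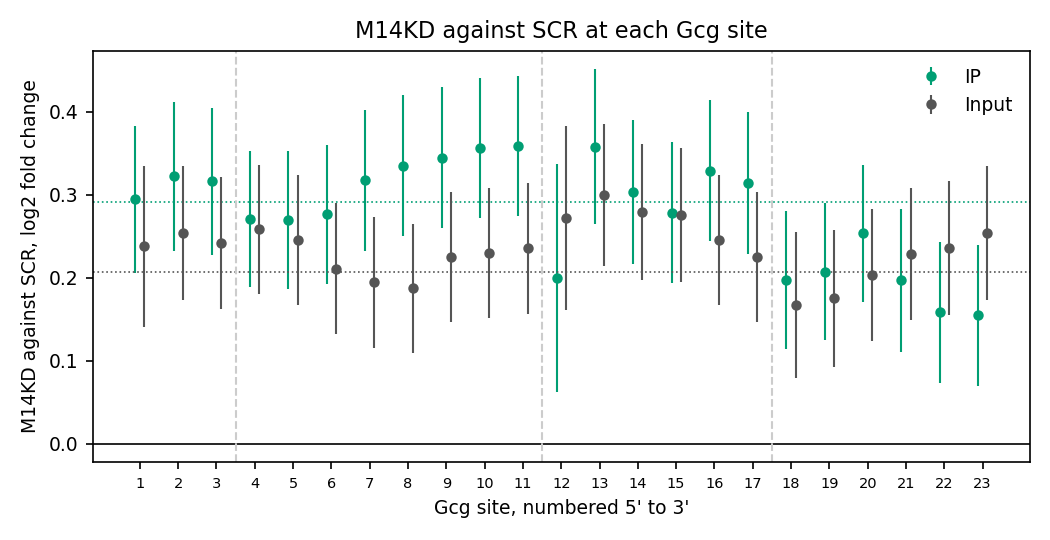
Log2 fold change of M14KD against SCR (edgeR; points are fitted values and bars SE, 2 libraries per group) at each Gcg site numbered 5′ to 3′, in IP and in Input, with dotted lines at the summed gene (0.29 in IP and 0.21 in Input). Every point lies above 0 and the IP values of sites 18 to 23 are 0.15 to 0.25.

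The change of IP over Input between genotypes, the comparison that takes off the Input change, was small for Gcg. The gene-level difference was 0.07 (SE 0.08, edgeR adjusted p = 0.999), 1.05-fold, beside a median of 0.00 over all genes. The IP over Input ratio was slightly less negative in both M14KD pairs than in both SCR pairs, as the 4 CPM ratios above show. How many other genes separate in this way was not counted. Of 23 sites 18 were above 0 and 5 below, where 49.7% of all sites were above 0. Gcg sites may count the same reads, so these are not independent. Their values ran from -0.11 to 0.14 with SE of 0.12 to 0.17, and 0 had an unadjusted p under 0.05. Site 8, at 62480510 in position group 2, had the lowest p (0.14, SE 0.12, edgeR adjusted p = 1). It had 3516 and 3267 CPM in SCR Input, 3851 and 3770 CPM in M14KD Input, 882 and 827 CPM in SCR IP and 1048 and 1073 CPM in M14KD IP. No gene and no site was called by DESeq2 or by edgeR without a replicate block in this comparison, 0% of those tested. The edgeR p before adjustment was nonetheless under 0.05 for 168 genes and 1242 sites. Against the rest of Gcg, 0 sites differed, where 0.00333% of all sites did. These fits did not use the pairing of IP and Input by replicate number. With SE of this size a difference of the order seen in Gcg could not be told from 0. With the replicate as a block, which uses the pairing, the gene-level difference was 0.07 (SE 0.04, edgeR adjusted p = 0.805) and did not pass. That fit called 1 of all 33356 sites and no Gcg site.

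Genes whose levels moved most like those of Gcg over the 8 libraries were found by the smallest root mean square difference of centred log2 CPM among 4581 genes. They were Emc7, a subunit of the endoplasmic reticulum membrane complex (0.08), the mitochondrially encoded cytochrome b gene CYTB (0.08), the complex III subunit Uqcr10 (0.09), Gm4617, a pseudogene whose reads may belong to a near-identical gene (0.10), and the ubiquitin gene Ubb (0.10), with Pearson's r of 0.998 to 0.999 to Gcg over 8 libraries that mostly reflects the gap between IP and Input. CYTB had 26334 ± 2551 CPM in SCR Input, 28691 ± 71.5 in M14KD Input, 6373 ± 951 in SCR IP and 7079 ± 96.3 in M14KD IP (SD, n = 2). These genes were picked by the same levels, so ratios and fold changes near those of Gcg follow from the rule. For CYTB the SCR ratio of IP over Input was -2.74 on the log2 scale (SE 0.09), and those of the others were between -2.86 and -2.61. Their log2 fold changes in M14KD ran from 0.13 to 0.29 in IP and from 0.08 to 0.28 in Input, and did not pass (edgeR adjusted p = 0.239 to 0.436 in IP).

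Of 24 genes listed for proglucagon processing and secretory granules, 16 had sites and 15 were tested in IP. Pcsk2, the convertase that releases glucagon, had an IP log2 fold change of 0.01 (SE 0.06) in M14KD and an Input value of 0.07 (SE 0.07), and its IP over Input ratio in SCR was -0.63 (SE 0.07). The granins, acidic proteins of the granule core, had less negative ratios than Gcg, with Chga at -1.87 (SE 0.06), Scg2 at -1.24 (SE 0.06) and Chgb at -1.08 (SE 0.07). Scg2 had M14KD fold changes of 0.42 (SE 0.06) in IP and 0.42 (SE 0.06) in Input, Chga of 0.12 and 0.10, and Chgb of 0.20 and 0.13. Vgf, a granin-like precursor named here after its values were seen, had the largest change of the list in the other direction, -0.80 (SE 0.09, edgeR adjusted p = 0.0615) in IP and -0.81 (SE 0.16) in Input. By edgeR none of the list passed in either direction in IP, Input or the interaction, as no gene did. In IP 6 were above 0 and 9 below, with a median of -0.09 beside 0.01 over all genes, and in IP over Input in SCR 2 were called higher and 10 lower (35.2% and 34.7% of all genes), with a median of -0.96 beside 0.04.

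Of 24 listed regulators of the glucagon gene, 14 had sites and were tested. In IP over Input in SCR 9 were called higher and 2 lower, against 35.2% and 34.7% of all genes, with a median of 0.33 beside 0.04 over all genes, where Gcg itself was at -2.69. Isl1, a LIM homeodomain factor of islet cells, was at 0.29 (SE 0.08), the leucine zipper factor Maf at 0.37 (SE 0.08), the islet differentiation factor Neurod1 at 0.62 (SE 0.10) and the Wnt effector Ctnnb1 at -0.71 (SE 0.07). In M14KD against SCR none passed in either direction, with 8 above 0 and 6 below in IP (median 0.02 beside 0.01) and 6 above and 8 below in Input (median -0.08 beside 0.00). Isl1 had 0.18 (SE 0.07) in IP and 0.16 (SE 0.09) in Input. Of 20 listed hormones and receptors beside glucagon, 4 had sites, the insulin receptor Insr, its substrates Irs1 and Irs2 and the somatostatin receptor Sstr3, and none was called in M14KD against SCR. Their IP over Input log2 ratios in SCR were between 0.45 and 1.56, with all 4 called higher, against 35.2% of all genes, and 3 called higher in M14KD. Of 11 listed m6A writers and related methyltransferases 7 had sites, with a median IP log2 fold change of -0.12 in M14KD and none called. By SCR Input count the first 4 of these were Rbm15b (-0.19, SE 0.09), an adaptor of the writer complex, its subunits Wtap (0.16, SE 0.08) and Virma (0.09, SE 0.08), and the m6Am enzyme Pcif1 (-0.35, SE 0.12), with IP fold changes in parentheses.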

How the data were processed

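Counts came from 1 deposited table, per the file headers raw whole numbers by site and library. UMI-tools, cutadapt, STAR and mm10 were named in the submitters' processing notes; the site caller, the counting window and whether molecules or reads were counted: not given in the sources used here. Sites were named by RefSeq gene spans (GRCm38.p6), 31928 sites in 6531 genes, and summed per gene. Counts were tested over all sites, or all genes, with edgeR 4.0.16 in R 4.3.3 (filterByExpr, TMM, quasi-likelihood F-test, Benjamini-Hochberg threshold 0.05), and each site against the rest of its gene with diffSpliceDGE. M14KD and SCR were compared within IP and within Input, and IP over Input and its difference between genotypes in 1 model of 8 libraries. Each SE was taken as |log2 fold change| / sqrt(F). No exon annotation or genome sequence was used; strand came from RefSeq's promoter table. DESeq2 1.42.0, 3 scalings, 2 filters, 1 site kept per 100 bases, the replicate block and each replicate left out were alternatives. Scripts were tested on simulated data.

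Members, lists and tests were chosen with earlier results of these data known. Named sites were the 3 with most SCR Input, the 2 highest and 2 lowest in IP over Input in SCR, and the lowest p of each genotype test; sites 3, 12, 19 and 23 and Vgf were named after their values were seen. Other genes were the 5 nearest in profile (mean count of at least 100, prior count 2), the 4 highest in SCR Input of each list, and Mettl14. Replicate pairs differed by 1.34 to 2.54 times sampling noise (chi-square over degrees of freedom), so none was counted as 1 sample. IP and Input libraries of 1 number deviated together from their group means, with a correlation over 4581 genes of 0.42 in SCR and 0.28 in M14KD, so the numbers pair the samples. Summed Gcg counts ran from 127714 to 209575 per library; how many independent molecules they stand for is unknown.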

Additional observations from a re-analysis of the deposited data

How the results depend on the processing

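Of 143 alternative values for 15 results, 134 kept the direction and the side of the threshold (for counts, stayed within 1.5 times), 0 reversed and 9 became stronger. In IP, M14KD against SCR, the Gcg log2 fold change was 0.287 and past the threshold with the DESeq2 test (adjusted p = 0.0389 over 2793 genes). The number of Gcg sites called there, 0 by edgeR with TMM, was 2 with DESeq2 size factors, 9 with the DESeq2 test and 2 with all 8 libraries in 1 model. The whole table gave 210 called sites in IP, 120 by DESeq2, 1422 without replicate 1, 80 without replicate 4 and 0 without replicate 3. Leaving out each replicate in turn, the IP fold change ran from 0.23 to 0.343, the Input fold change from 0.174 to 0.25, the IP count of Gcg sites from 0 to 18, the interaction from 0.0455 to 0.0948, IP over Input from -2.71 to -2.66 in SCR and from -2.64 to -2.60 in M14KD, and the count of sites unlike the rest of Gcg from 11 to 16 in SCR and from 10 to 16 in M14KD. The cause of these differences was not tested. With the replicate block, which uses the pairing of IP and Input, the interaction was 0.0688 (SE 0.04, edgeR adjusted p = 0.805). IP over Input was then -2.69 in SCR and -2.62 in M14KD. With the block, 16 sites in SCR and 17 in M14KD (15 without the block) differed from the rest of Gcg. Such calls were common, as the block called 15766 of all 30058 sites in SCR and 15476 in M14KD. How many sites were called over the whole table also changed with the replicate left out. The block did not change the calls of the summed gene. Nor did it change the counts of Gcg sites called higher or lower in IP over Input and in the interaction. With 1 site kept per 100 bases, 6 Gcg sites remained, with 0.298 in IP, 0.208 in Input and -2.75 for IP over Input in SCR. Column totals gave -1.97 there. The SE of the interaction ran from 0.12 to 0.17 over the Gcg sites.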
